A study of Homo sapiens with 6 samples.

Results

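The aryl hydrocarbon receptor pathway was followed in A375, an established human melanoma line driven by mutant BRAF, through 7 genes: the receptor AHR, its partner ARNT, the repressor AHRR, the feedback enzyme TIPARP and the target genes CYP1A1, CYP1B1 and NQO1. They were taken by symbol, as the pathway's members, from 19775 genes that have a probe set of a single gene symbol, and each was read from its probe set of highest mean. All 7 were among the 13506 genes whose mean signal reached 5 log2 units and which were tested. Every cell in the series descends from A375 cells in which eIF4B, a translation initiation factor that helps the eIF4A helicase unwind mRNA, was disrupted by CRISPR. In the KO/LacZ line a lentivirus then delivered LacZ, a bacterial gene used as a negative control, and in the KO/eIF4B line it delivered wild-type eIF4B, so both lines carry the knockout and a transgene. Each line gave 1 array under vehicle (DMSO, with no time given), 1 after 6 h and 1 after 18 h of 10 µM vemurafenib, an inhibitor of mutant BRAF, which makes 6 arrays in all. No unedited A375 cells were analysed here, and whether each line is a single clone, and whether the arrays of a line came from separate cultures, is not given in the sources used here. P-values therefore measure only the spread left between these arrays once the terms of each fit are taken out. In the tests of treatment, both lines serve as the samples of each treatment.

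AHR is a transcription factor of the bHLH-PAS family that waits in the cytoplasm with HSP90 and other chaperones. A ligand, such as a dioxin or the tryptophan product kynurenine, sends it to the nucleus, where it pairs with ARNT and binds xenobiotic response elements, whose core reads GCGTG. CYP1A1 and CYP1B1, which oxidise aromatic compounds, are its best known targets, and AHRR and TIPARP are targets that in turn restrain it. In melanoma AHR has been studied as a receptor that responds to tryptophan products and as one that vemurafenib itself has been reported to bind.

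The signal of EIF4B separated the lines on its brightest probe set, at 8.40, 8.53 and 8.53 log2 units in KO/LacZ cells (vehicle, 6 h, 18 h) against 10.07, 10.14 and 10.28 in KO/eIF4B cells (difference -1.68, SE 0.05, limma adjusted p = 0.00558). Its remaining 2 probe sets passed no test between the lines. Of 9 melanocyte lineage markers 8 had a probe set and 6 reached a mean of 5, among them SOX10 at 10.27. The pigment genes PMEL and TYR averaged 5.685 and 5.57, while MLANA and TYRP1 averaged 4.88 and 3.55. Of the blood markers, PTPRC and CD14 averaged 3.05 and 4.34, while LYZ and CD3E averaged 6.64 and 5.76. The epithelial markers EPCAM and CDH1 averaged 2.60 and 3.14, while the keratins KRT18 and KRT14 averaged 12.23 and 9.72. A mean of 5 was reached by 3 of 6 epithelial, 3 of 6 fibroblast, 2 of 4 blood and 2 of 4 hepatocyte markers with a probe set. The summed linear signal of the fibroblast markers moved with treatment, at 426, 584 and 1011 in KO/LacZ cells and 526, 664 and 1299 in KO/eIF4B cells. LUM (6.39 to 9.56 log2 units) and DCN (5.78 to 7.84) carried that sum, while COL1A1 stayed between 7.87 and 8.001 and PDGFRA between 4.29 and 4.38. The sum of the melanocyte lineage markers was highest at 18 h, at 2203, 1970 and 2984 in KO/LacZ cells and 2345, 2041 and 2707 in KO/eIF4B cells. That of the epithelial markers was lowest at 18 h, at 7583, 6463 and 5759 in KO/LacZ cells and 6106, 5221 and 4631 in KO/eIF4B cells. At 6 h both sums lay below vehicle in each line. KRT18 (11.70 to 12.75 log2 units) and KRT14 (8.85 to 10.80) carried the epithelial sum. The part of these markers in the results was not tested. In bulk RNA, fewer cells that express a gene and less RNA per cell cannot be told apart.

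The receptor itself moved little and only for a time. AHR signal was 8.79, 9.09 and 8.71 log2 units in KO/LacZ cells under vehicle, at 6 h and at 18 h, and 8.64, 9.16 and 8.77 in KO/eIF4B cells. The 6 h arrays were the highest of both lines, and the vehicle and 18 h arrays overlapped. AHR rose by 0.40 on the log2 scale at 6 h (1.32-fold, SE 0.08, adjusted p = 0.0311, higher in both lines), a call that was lost when dim genes were also tested (adjusted p = 0.0568, range over the alternatives 0.00627 to 0.0568). At 18 h it differed from vehicle by 0.02 (adjusted p = 0.849), and between 6 h and 18 h it fell by 0.38 (adjusted p = 0.0198).

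ARNT, the partner that AHR needs to bind DNA, was called higher at 18 h and not at 6 h. Its signal was 6.82, 7.01 and 7.54 log2 units in KO/LacZ cells and 6.51, 6.95 and 7.09 in KO/eIF4B cells, in the order vehicle, 6 h and 18 h. Within each line the 18 h array was the highest and the vehicle array the lowest. ARNT differed from vehicle by 0.32 at 6 h (SE 0.10, adjusted p = 0.106) and rose by 0.65 at 18 h (1.57-fold, SE 0.10, adjusted p = 0.005). Between 6 h and 18 h it differed by 0.33 (limma adjusted p = 0.0605), and its 5 brightest probe sets differed by 0.04 to 0.47. Of its 7 probe sets the 5 brightest rose at 18 h, by 0.29 to 0.65 (adjusted p of 0.00506 to 0.0455 over all probe sets), and the other 2, with means of 3.09 and 2.47, changed by 0.06 and -0.02.

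**Figure D1:**
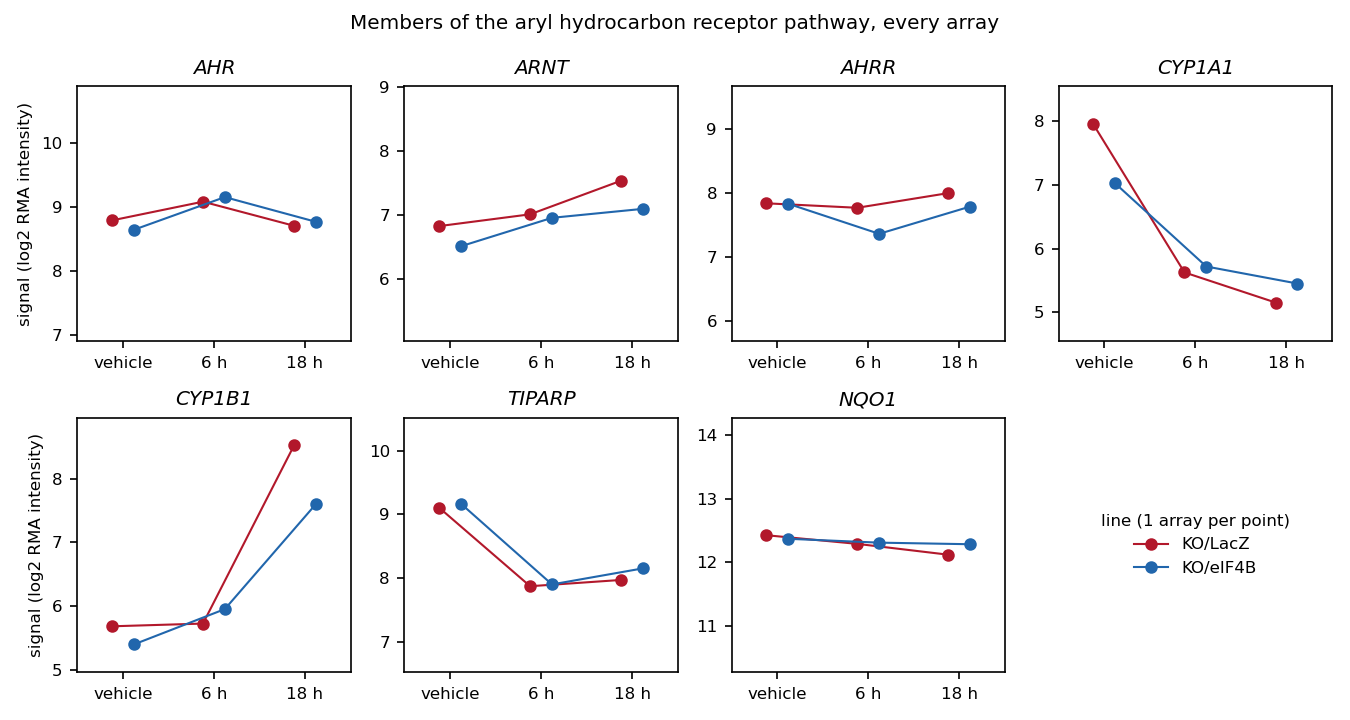
Signal (log2) of the 7 members on each array, 1 panel a gene, against treatment (vehicle, 6 h and 18 h of vemurafenib); points are single arrays joined by line, and each panel spans the same height in log2 units. CYP1A1 and TIPARP are lower on all 4 treated arrays than on both vehicle arrays, and CYP1B1 is highest at 18 h.

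Of the genes that restrain the receptor, TIPARP fell early and stayed low, and AHRR passed no test. TIPARP, a mono-ADP-ribosyltransferase that modifies AHR and dampens its activity, had signals of 9.10, 7.87 and 7.97 log2 units in KO/LacZ cells and 9.17, 7.90 and 8.15 in KO/eIF4B cells. The 4 treated arrays lay below both vehicle arrays and the lines ran close together. TIPARP fell by 1.25 at 6 h (2.38-fold, SE 0.07, adjusted p = 0.000955) and by 1.07 at 18 h (2.11-fold, SE 0.07, adjusted p = 0.000403). An antisense gene, TIPARP-AS1, overlaps it in RefSeq.

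AHRR, which competes with AHR for ARNT, had signals of 7.84, 7.77 and 8.001 log2 units in KO/LacZ cells and 7.83, 7.36 and 7.79 in KO/eIF4B cells. The arrays overlapped between treatments, and the lowest of the 6 was the 6 h array of the KO/eIF4B line. The difference from vehicle was -0.27 at 6 h (SE 0.11, adjusted p = 0.149) and 0.06 at 18 h (adjusted p = 0.681). AHRR shares its locus with the readthrough gene PDCD6-AHRR.

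CYP1A1, the monooxygenase most often read as the output of AHR, was the member with the largest fall. Its signal was 7.95, 5.63 and 5.16 log2 units in KO/LacZ cells and 7.02, 5.72 and 5.45 in KO/eIF4B cells. Both vehicle arrays lay above all 4 treated arrays, and the 18 h array was the lowest of each line. CYP1A1 fell by 1.81 at 6 h (3.51-fold, SE 0.29, adjusted p = 0.0192) and by 2.18 at 18 h (4.54-fold, SE 0.29, adjusted p = 0.00285), the change of rank 55 and of rank 69 from the lowest among all genes tested. Between 6 h and 18 h the difference was -0.37 (adjusted p = 0.372). Only 1 probe set reads CYP1A1.

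CYP1B1, which metabolises estrogens and polycyclic aromatic compounds, moved the other way and later. Its signal was 5.68, 5.72 and 8.52 log2 units in KO/LacZ cells and 5.40, 5.95 and 7.60 in KO/eIF4B cells. Only the 18 h arrays stood apart, above the other 4. CYP1B1 differed from vehicle by 0.30 at 6 h (SE 0.26, adjusted p = 0.478) and rose by 2.52 at 18 h (5.74-fold, SE 0.26, adjusted p = 0.00125, rank 50 from the highest). Between 6 h and 18 h it rose by 2.22 (4.66-fold, SE 0.26, adjusted p = 0.00494, rank 11). Of its 4 probe sets 3 rose at 18 h, by 2.26 to 3.07, with adjusted p of 0.000727 to 0.00161 over all probe sets. The fourth stayed between 4.52 and 4.85 and differed by 0.25 (adjusted p = 0.112). The brightest probe set read 5.40 to 5.95 on the vehicle and 6 h arrays. Those values lie near the array medians over all probe sets, 5.19 to 5.22 log2 units. Under vehicle the other rising probe sets read 4.49 to 4.77. How far such low signal shaped the fold sizes was not tested.

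NQO1, a quinone reductase that answers to AHR and also to the oxidative stress factor NRF2, had signals of 12.42, 12.29 and 12.12 log2 units in KO/LacZ cells and 12.37, 12.31 and 12.28 in KO/eIF4B cells. Within each line the vehicle array was the highest and the 18 h array the lowest. This probe set differed from vehicle by -0.10 at 6 h (adjusted p = 0.425) and by -0.20 at 18 h (SE 0.08, adjusted p = 0.0832). The probe sets disagreed on the call: over all probe sets, the second brightest fell by 0.67 at 18 h (adjusted p = 0.00491), and the third differed by -0.33 (adjusted p = 0.0743). With the mean of the 3 probe sets in place of the brightest, NQO1 fell by 0.40 (adjusted p = 0.00962, range over the alternatives 0.00962 to 0.134). The brightest probe set alone was also called lower at 18 h under a prior with an intensity trend (-0.20, adjusted p = 0.0122).

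**Figure D2:**
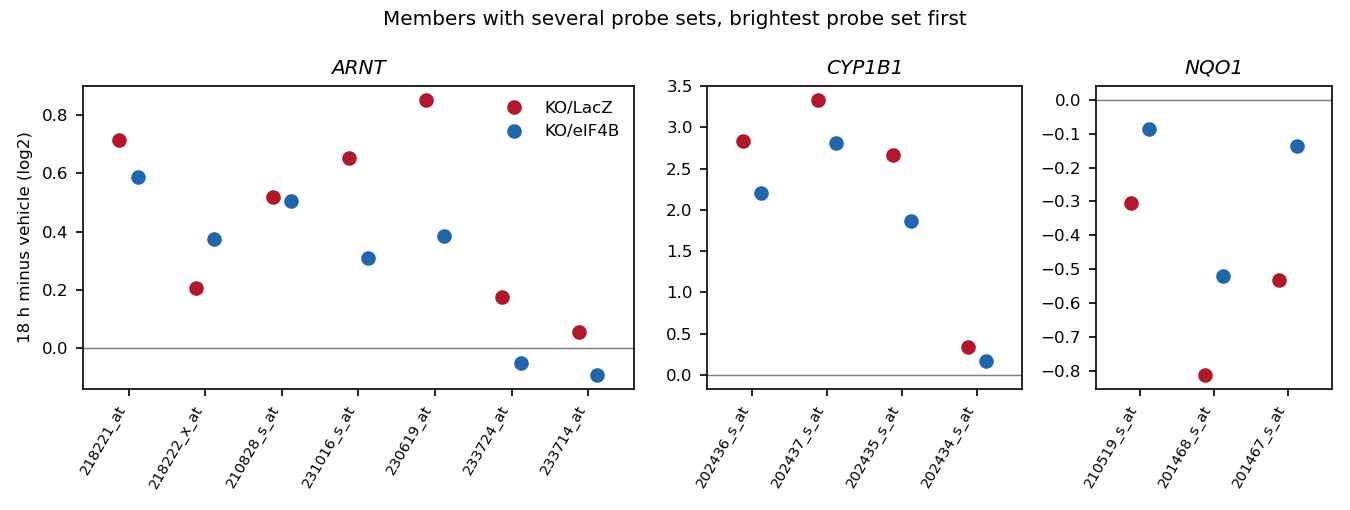
Difference between 18 h and vehicle (log2) for every probe set of ARNT, CYP1B1 and NQO1, brightest first, with 1 point for each line (1 array minus 1 array); the vertical axes differ between panels. In CYP1B1 3 of 4 probe sets lie far above 0 in both lines, and all 3 NQO1 probe sets lie below 0 in both.

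Counted together, 1 of 7 members was called higher at 6 h (AHR) and 2 lower (CYP1A1 and TIPARP), where 7.34% and 8.82% of all genes tested were called. At 18 h 2 were higher (ARNT and CYP1B1) and 2 lower (CYP1A1 and TIPARP), where 28.1% and 23.3% of all genes were. Between 6 h and 18 h 1 was higher (CYP1B1) and 1 lower (AHR), where 19% and 14.9% of all genes were. The median difference over the members was -0.098 at 6 h and 0.021 at 18 h, against 0.029 and 0.009 over all genes tested. The 6 h and 18 h differences are set against the same 2 vehicle arrays. The CYP1 genes changed in opposite directions at 18 h, with CYP1B1 up 5.74-fold and CYP1A1 down 4.54-fold. Both fold sizes have their lower end near the array medians.

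**Figure D3:**
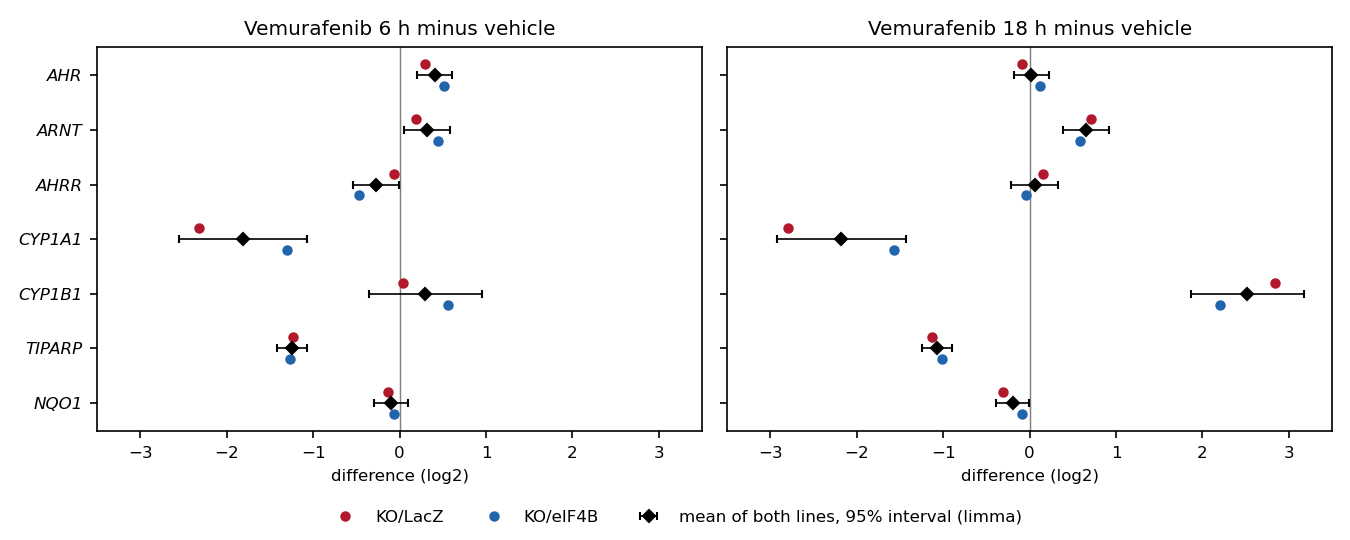
Difference from vehicle (log2) of each member at 6 h and at 18 h in each line (points, 1 array minus 1 array), with the limma mean of both lines (diamonds) and its 95% interval (bars). CYP1A1 and TIPARP lie below 0 in both lines at both times, and CYP1B1 reaches 2.84 in KO/LacZ cells and 2.20 in KO/eIF4B cells at 18 h.

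The promoters of the 2 members that fell at both times are shown for the AHR core motif, as the 250 bases before the transcription start in RefSeq (GRCh38.p14), 5′ to 3′ along the gene's strand, with GCGTG or its complement CACGC in capitals. CYP1A1 lies at chr15:74725529-74725778 on the minus strand, and TIPARP, at the first of its starts, at chr3:156674340-156674589 on the plus strand.
CYP1A1: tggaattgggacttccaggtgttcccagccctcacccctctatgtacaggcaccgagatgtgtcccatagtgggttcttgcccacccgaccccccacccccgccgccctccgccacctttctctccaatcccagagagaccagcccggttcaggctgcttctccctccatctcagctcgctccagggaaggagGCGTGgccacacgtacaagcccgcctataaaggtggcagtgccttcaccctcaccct
TIPARP: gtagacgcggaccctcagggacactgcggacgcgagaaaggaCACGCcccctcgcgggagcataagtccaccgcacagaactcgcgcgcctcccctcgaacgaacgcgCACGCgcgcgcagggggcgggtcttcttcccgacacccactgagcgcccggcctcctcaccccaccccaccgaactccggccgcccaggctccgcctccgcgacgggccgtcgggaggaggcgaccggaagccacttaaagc
In the RefSeq windows, which hold 250 bases before a start and 50 after it, CYP1A1 holds 1 core on its own strand, with its first base at -57. The first TIPARP window holds 2 cores on the opposite strand, at -208 and -142, and the windows of its other 2 starts hold 0. The members AHR, AHRR and NQO1 also hold a core, and ARNT holds none, in windows found for 6 of 7 members. The longer form TNGCGTG, where N is any base, is in no CYP1A1 or TIPARP window. It is in 1 AHRR window, in the NQO1 window and in 5.51% of all windows. Bases further upstream were not searched. Among all 35116 promoter windows 36.5% hold GCGTG on either strand. Counted by gene, 40.6% of 27305 genes hold it in at least 1 window, so a match is common and is a description only.

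Under vehicle, CYP1A1 was the member in which the lines differed most. The KO/LacZ array read 7.95 log2 units and the KO/eIF4B array 7.02, a difference of 0.93 (1.9-fold) and rank 18 from the highest among all genes tested, of which 0.259% differed by as much. In 99% of genes the vehicle pair differed by 0.62 or less. The other members differed under vehicle by -0.06 (TIPARP) to 0.32 (ARNT). The ARNT value belongs to its brightest probe set: with the mean of its probe sets it was 0.03, and 2 of the 5 brightest gave -0.10 and -0.11. With 1 array a line these values have no replicate check and no test.

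Under vemurafenib that order of the lines for CYP1A1 was not kept. CYP1A1 read 5.63 in KO/LacZ cells and 5.72 in KO/eIF4B cells at 6 h, a difference of -0.09, and 5.16 and 5.45 at 18 h, a difference of -0.30. Over the treated pairs the difference was -0.20 (95% interval -0.43 to 0.04, adjusted p = 0.429). From vehicle, CYP1A1 differed by -2.32 at 6 h and -2.80 at 18 h in KO/LacZ cells, and by -1.30 and -1.57 in KO/eIF4B cells. The difference of the treated pairs minus that under vehicle was -1.12 (SE 0.16, 95% interval -1.52 to -0.72, rank 11 from the lowest), with an unadjusted p of 0.000656 and an adjusted p of 0.934 over all genes (range over the alternatives 0.149 to 1). It rests on the vehicle pair of single arrays, which the fit matches exactly. The gene's own part of the SE is only how far the 6 h and 18 h line differences disagree. The rest comes from the prior over all genes. The SE, interval and p-values therefore hold no spread of CYP1A1 in the vehicle pair. The treated CYP1A1 values of 5.16 to 5.72 also lie near the array medians over all probe sets, 5.19 to 5.22 log2 units. How far such low signal shaped the difference between the lines was not tested.

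In CYP1B1 the lines stood furthest apart at 18 h. The KO/LacZ array read 8.52 and the KO/eIF4B array 7.60, a difference of 0.92 (1.89-fold, rank 63 from the highest), where 0.755% of genes differed by as much. At 6 h the difference was -0.23, with 5.72 in KO/LacZ cells and 5.95 in KO/eIF4B cells. Over both treated pairs it was 0.35 (95% interval -0.31 to 0.998, adjusted p = 0.612). AHRR was higher in KO/LacZ cells in both treated pairs, by 0.41 and 0.21 (mean 0.31, 95% interval 0.08 to 0.54, adjusted p = 0.248).

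No member was called between the lines by limma. Over all treatments 2.5% of genes were called and 0 members, with 1 member (ARNT, difference 0.27, higher in KO/LacZ cells in all 3 pairs) at an unadjusted p under 0.05. The ARNT probe sets disagreed: of 7, 2 were higher in KO/LacZ cells in all 3 pairs, 1 was lower in all 3 (fitted difference -0.08), and the other 4 did neither. In treated pairs 0.37% of genes were called and 0 members, with 1 (AHRR) at an unadjusted p under 0.05. For the treated pairs minus vehicle 0% of genes were called, 302 genes (2.24%) had an unadjusted p under 0.05, and CYP1A1 was the 1 member among them. AHR differed between the lines by 0.00 over all treatments (adjusted p = 0.976) and TIPARP by -0.09 (adjusted p = 0.386).

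**Figure D4:**
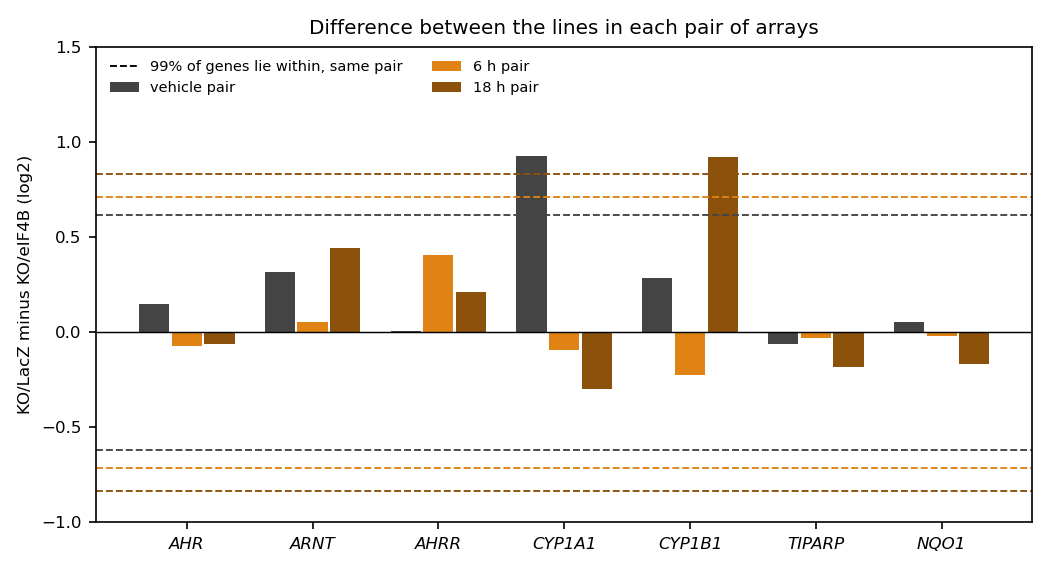
KO/LacZ minus KO/eIF4B signal (log2) of each member in the vehicle, 6 h and 18 h pair of arrays; each bar is 1 pair of single arrays, and dashed lines of the same colour enclose 99% of all genes tested in that pair. CYP1A1 in the vehicle pair (0.93) and CYP1B1 in the 18 h pair (0.92) pass those lines.

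Genes for chaperones and other partners of the receptor were taken as a list of 14, of which 12 could be tested, at the level of RNA. At 6 h 2 rose and 4 fell (median -0.048), and at 18 h 3 rose and 6 fell (median -0.198). These counts, and those of the lists that follow, stand beside 7.34% of all genes called higher and 8.82% lower at 6 h, and 28.1% and 23.3% at 18 h. Of the 12, 3 higher at 18 h is near the share over all genes. The 6 lower at 18 h, and the 2 higher and 4 lower at 6 h, are above theirs. The list was chosen with earlier results of these data known, and it was not tested as a set. ARNT2, a relative of ARNT that can pair with AHR, fell by 1.81 at 6 h (adjusted p = 0.00112) and by 1.15 at 18 h (adjusted p = 0.000933), so that ARNT and ARNT2 changed in opposite directions at 18 h. KLF6, a zinc finger factor, fell by 1.45 at 18 h, and the corepressor NRIP1 fell by 0.99 at 6 h. The coactivator NCOA2 rose by 1.29 and the ubiquitin ligase scaffold CUL4B by 0.82 at 18 h.

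Other genes reported as AHR targets, a list of 18 with 11 tested, were split. At 6 h 2 rose and 1 fell (median 0.127), and at 18 h 2 rose and 3 fell (median -0.126). The 18 h counts are near the shares over all genes. MMP1, a collagenase, fell by 2.86 at 18 h (adjusted p = 0.000512), with signals of 7.34, 6.52 and 4.06 in KO/LacZ cells and 6.77, 6.19 and 4.33 in KO/eIF4B cells. HES1, a repressor downstream of Notch, fell by 2.38 at 6 h and by 1.96 at 18 h. The scaffold NEDD9 rose by 0.997 and the cell cycle inhibitor CDKN1B by 0.72 at 18 h.

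Genes that handle tryptophan and kynurenine, the source of AHR ligands made by cells, gave 1 higher and 0 lower of 11 tested at 6 h (list of 15, median 0.067) and 2 higher and 3 lower at 18 h (median -0.082). WARS1, which charges tRNA with tryptophan, rose by 0.96 at 18 h. The aminotransferases moved apart, with KYAT3 up by 0.91 and AADAT down by 1.01, and AFMID, which releases kynurenine, fell by 0.65.

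Of a list of 11 other bHLH-PAS genes, which leaves out AHRR and ARNT2, 9 were tested. At 6 h 0 were higher and 1 lower (median -0.023), and at 18 h 2 were higher and 1 lower (median -0.095). The clock factor NPAS2 fell by 0.56 at 6 h and by 1.28 at 18 h, and the clock factors BMAL1 and BMAL2 rose by 0.53 and 0.25 at 18 h. NRF2 and its targets, which share NQO1 with AHR, gave 1 higher and 1 lower of 16 tested at 6 h (list of 18, median 0.03) and 6 higher and 2 lower at 18 h (median 0.117). HMOX1 rose by 0.83 and PGD by 0.71 at 18 h, while SRXN1 fell by 0.79 and GCLM by 0.75. The HMOX1 value is a mean of 0.32 in KO/LacZ cells and 1.34 in KO/eIF4B cells. SLC7A11, the cystine transporter, was the 1 gene of these lists called between the lines, lower in KO/LacZ cells in treated pairs by 1.23 (adjusted p = 0.0182).

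**Figure D5:**
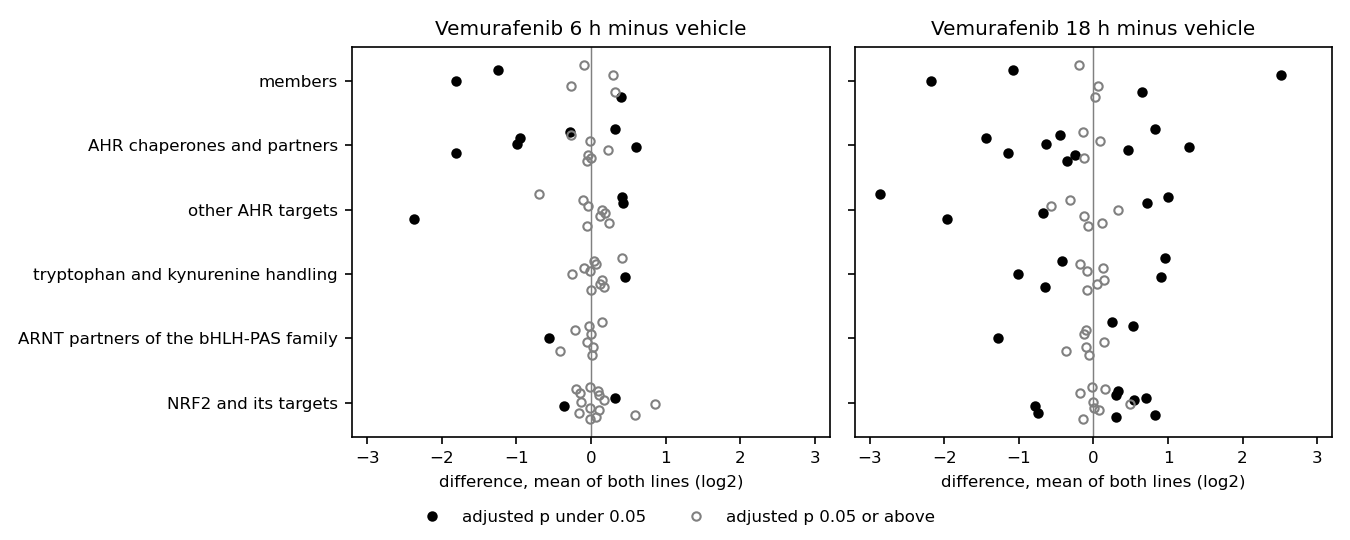
Mean difference from vehicle over both lines (log2) at 6 h and at 18 h for the members and 5 lists of related genes, 1 point a gene; filled points passed an adjusted p of 0.05. Each list holds genes on both sides of 0 at 18 h.

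Among 1830 candidate genes the profile over the 6 arrays most like that of AHR belonged to OSR2 (Pearson r = 0.878), followed by ATF3 (0.833), CT83 (0.815), LINC01224 (0.792) and CLTRN (0.786). OSR2 had signals of 7.12, 7.95 and 6.76 in KO/LacZ cells and 7.08, 7.75 and 6.70 in KO/eIF4B cells, with its 6 h arrays highest. For CYP1B1, the member with the widest range, TRPT1 (0.999), HOGA1 (0.998), NUDT7, COL21A1 and FAM168A (0.997 each) came closest of 1829 candidates, all highest on the 18 h array of the KO/LacZ line. The 6 arrays share treatments and normalization, so these likenesses are descriptions.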

How the data were processed

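Total RNA of the 6 samples was labelled with biotin and hybridised to Affymetrix arrays, per the labels' protocols. The authors deposited linear intensities (3.01 to 19000) made with RMA in affy, per the submitters' processing notes, with no versions named. RMA brings the arrays to nearly 1 distribution, which hides shifts in a cell's whole mRNA content. The log2 of the deposited values was taken. Of 54675 probe sets, 41091 carry a single symbol, and the brightest stood for each gene. Those genes with a mean of at least 5 were fitted with limma 3.58.1 in R 4.3.3: an additive model of line and treatment (2 residual degrees of freedom), and a second model that keeps the lines' difference under vehicle apart from the treated pairs (1 residual degree of freedom). In the second model the spread of a gene comes only from how far its 6 h and 18 h line differences disagree. P-values were adjusted by Benjamini-Hochberg over all genes tested, with a threshold of 0.05. Both fits were tested on simulated data, with noise drawn from the fitted prior and not from the spread of any 1 gene. There the test of treated pairs minus vehicle had little power for changes near the size seen in CYP1A1. This does not decide whether an effect was missed in CYP1A1. Alternatives changed the filter, the probe set rule, an added 16 before the log2, centring, the prior and the arrays used.

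The members, lists and tests were chosen with earlier results of these data known. All members were named, from each list at most 4 genes with the largest 18 h changes past the threshold and at most 2 more at 6 h or between the lines, and 5 genes of like profile for AHR and for the member of widest range. The number of arrays limits the precision.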

Additional observations from a re-analysis of the deposited data

Results flagged for a closer look

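At 18 h AHR and AHRR differed from vehicle in opposite directions in the 2 lines, with no test of the difference, since each value is 1 array against 1. AHR differed by -0.08 from vehicle in KO/LacZ cells and by 0.13 in KO/eIF4B cells, a difference of -0.21. AHRR differed by 0.16 in KO/LacZ cells and by -0.04 in KO/eIF4B cells, a difference of 0.20. Differences at least as large were found in 24.8% and 25.8% of all genes tested, and for the treated pairs minus vehicle the limma adjusted p was 1 for both genes.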

How the results depend on the processing

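Over 10 alternatives, 280 of 288 tested member values kept their side of the threshold, and 4 values that passed no test changed sign, 0 of them past the threshold. Those were the difference between the lines over all treatments without the vehicle pair for CYP1A1 (-0.20, against 0.18) and AHR (-0.07, against 0.00) and without the 18 h pair for NQO1 (0.02, against -0.04), and AHR at 18 h with centred arrays (-0.01, against 0.02). TIPARP and CYP1A1 at 6 h and 18 h, ARNT at 18 h and CYP1B1 at 18 h kept their calls wherever they were tested, with CYP1A1 at 18 h between -1.82 and -2.21. With no filter on dim genes the share called fell to 2.85% higher and 4.22% lower at 6 h, 18.7% and 15.5% at 18 h, 10.9% and 7.88% between 6 h and 18 h, 0.293% between the lines over all treatments and 0.131% in treated pairs, and 0 members were called higher at 6 h. With an intensity trend and robust prior 11.2% were higher at 6 h, 8.86% differed between the lines, 5.03% in treated pairs and 0.0666% for treated pairs minus vehicle, and 3 members were higher between 6 h and 18 h (AHRR, adjusted p = 0.0332, range 0.0332 to 0.1, and ARNT, 0.0414, range 0.0414 to 0.0938, beside CYP1B1), and NQO1 was lower at 18 h (0.0122, range 0.00962 to 0.134). With 16 added before the log2 the lines gave 4.01% and treated pairs 1.01%, and the same 3 members were higher between 6 h and 18 h. With the mean of all probe sets treated pairs gave 0.566%, ARNT fell under the minimum, 1 member was higher at 18 h and ARNT differed by 0.03 under vehicle. Centring on array medians gave 0.859% in treated pairs. With only the 4 arrays compared, 2 members were lower between 6 h and 18 h (CYP1A1, adjusted p = 0.039, range 0.039 to 0.429, beside AHR). Between the lines, 0.37% of genes were called without the vehicle pair, 0% without the 6 h pair and 0% without the 18 h pair, with fewer arrays each time. Otherwise the cause was not tested. The additive model already pairs the arrays by line and by treatment, and the labels give no replicate numbers for a further block.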
